A study of Mus musculus with 7 samples.

Results

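The 10 genes described here encode adhesion molecules and identity proteins of the vascular endothelium. They were chosen by name, and all 10 were found among the 17920 genes of the deposited table. Sele (E-selectin), Selp (P-selectin), Icam1 and Vcam1 are the 4 adhesion members. Pecam1 (CD31), Cdh5 (VE-cadherin), Vwf (von Willebrand factor), Kdr (VEGF receptor 2) and Tek (TIE2) are the 5 identity members. Angpt2 (angiopoietin-2), a ligand of Tek, was counted in neither set. In the GRCm38.p6 RefSeq annotation, Sele (chr1:164039614-164058487) and Selp (chr1:164115264-164150026) are neighbours, and Icam1 lies at chr9:21015940-21028814 and Vcam1 at chr3:116110020-116129688. Pecam1 lies at chr11:106654213-106715281, Cdh5 at chr8:104101613-104144504, Vwf at chr6:125552948-125686679, Kdr at chr5:75932827-75979072, Tek at chr4:94739086-94874976 and Angpt2 at chr8:18690263-18741562.

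As background, endothelial cells line blood vessels and, in the spleen, the sinusoids of the red pulp. After contact with lipopolysaccharide (LPS, a bacterial cell wall component) or with tumour necrosis factor and interleukin-1, they transcribe selectins and immunoglobulin-family adhesion molecules, largely through NF-kB. Selectins let leukocytes roll, ICAM-1 and VCAM-1 bind leukocyte integrins, and the proteins have different kinetics: E-selectin transcription is brief, while P-selectin is also kept ready in storage granules with von Willebrand factor. Cdh5, Pecam1, Kdr and Tek are used as endothelial identity markers. Several of the 10 are shared with other cells: Pecam1, Selp and Vwf are also made in the platelet lineage, Icam1 in many leukocytes, and Vcam1 in splenic macrophages and reticular stroma.

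RNA from 7 spleens of mice labelled C57BL/6, each 8 weeks old, was sequenced. Every animal had received 20 mg/kg LPS intraperitoneally, and spleens were taken 90 min later from 2 wild-type and 2 GdX-deficient mice and 6 h later from 2 wild-type mice and 1 GdX-deficient mouse. The GdX-deficient mice carry a loss of Ubl4a, an X-linked gene for a ubiquitin-like protein that helps hand tail-anchored proteins to membranes; the labels write the genotype as GdX-/-, and the series title as GdX-/Y. No spleen without LPS was analysed here, so whether a gene was induced by LPS cannot be read from these values, which show only levels at 90 min and at 6 h. The source is labelled splenocytes, but the protocol describes whole spleen broken up on ice, and endothelial genes were measured throughout: 28 of 28 genes of a second endothelial list were above 0 in every library.

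Levels are FPKM (fragments scaled to transcript length and to library depth), which can be compared between genes because they are per length. Low values step by what 1 fragment is worth, and the step gave between 18900000 and 21300000 mapped fragments per library. The globin share of the FPKM sum ranged from 7.7% to 30.9%. Ubl4a itself had 4.03 and 5.69 FPKM without and 5.62 and 7.5 FPKM with intact GdX at 90 min, where the genotypes overlapped, and 10.6 against 11.9 and 14.0 FPKM at 6 h. The overlapping entry Gm44504 stood at 0.66 to 1.86 FPKM in the 3 GdX-deficient and 14.5 to 51.1 FPKM in the 4 wild-type libraries. Wild-type replicates 1 and 2 stood apart from each other in the same way at both times: across genes, which are not independent, their log2 differences correlated with Pearson's r of 0.77 between the times. Those differences ran with transcript length, with a Spearman's rho of -0.59 at 6 h and -0.45 at 90 min, against -0.17 between the GdX-deficient replicates. For the members, wild-type replicate 1 lay below replicate 2 for 10 of 10 genes at 6 h and 9 of 10 at 90 min.

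Promoter sequences, from 250 bases before to 50 after a start site in the RefSeq table, are shown for the adhesion members, because the contrast of adhesion with identity members turns on them, and Sele had the largest ratio between times. The RefSeq table (GRCm38.p6) matched 5 of the 10 members: Sele, Selp, Icam1, Kdr and Tek. Vcam1, Pecam1, Cdh5, Vwf and Angpt2 were not matched. The Selp and Icam1 windows surround the start of the gene's listed span, while the Sele, Kdr and Tek windows surround a start that lies inside it. Capitals mark matches, on either strand, to the general NF-kB form (GGG and CC with any bases between, to a total of 10), the AP-1 form TGANTCA, the TATA box TATAAA and the ETS forms CAGGAAG and CCGGAAG.
Sele, chr1:164047984-164048283, plus strand: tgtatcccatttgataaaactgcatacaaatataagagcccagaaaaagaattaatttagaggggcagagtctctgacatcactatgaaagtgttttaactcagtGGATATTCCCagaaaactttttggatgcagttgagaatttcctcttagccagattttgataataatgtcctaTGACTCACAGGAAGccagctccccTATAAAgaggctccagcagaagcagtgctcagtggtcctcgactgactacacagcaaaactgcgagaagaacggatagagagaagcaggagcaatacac
Selp, chr1:164115014-164115313, plus strand: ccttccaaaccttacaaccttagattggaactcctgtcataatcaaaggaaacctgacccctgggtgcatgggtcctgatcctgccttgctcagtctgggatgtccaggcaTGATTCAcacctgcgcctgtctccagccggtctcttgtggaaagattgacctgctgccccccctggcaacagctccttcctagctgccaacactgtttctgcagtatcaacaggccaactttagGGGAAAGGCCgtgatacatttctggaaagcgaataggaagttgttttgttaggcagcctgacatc
Icam1, chr9:21015690-21015989, plus strand: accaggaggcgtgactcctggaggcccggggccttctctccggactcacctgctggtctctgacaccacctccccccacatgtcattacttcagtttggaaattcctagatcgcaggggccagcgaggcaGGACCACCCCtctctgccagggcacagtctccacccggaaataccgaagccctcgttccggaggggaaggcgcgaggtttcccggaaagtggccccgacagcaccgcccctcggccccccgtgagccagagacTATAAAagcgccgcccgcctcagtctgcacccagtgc
The Sele window held a match to all 4 patterns, in 5′ to 3′ order NF-kB (GGATATTCCC, read on the minus strand), AP-1 (TGACTCA), directly followed by ETS (CAGGAAG), and then TATAAA. The Selp window held the NF-kB form (GGGAAAGGCC) and AP-1 (TGATTCA), and neither TATAAA nor an ETS form. The Icam1 window held the NF-kB form (GGACCACCCC, minus strand) and a TATAAA that starts 13 bases after the start site. Of the identity members, the Kdr window held the NF-kB form at 2 places and the Tek window at 1, and neither held the other 3 patterns. Over 32544 promoter windows of the same length, 51.0% held the NF-kB form, 7.79% AP-1, 13.6% TATAAA and 21.0% an ETS form, so the NF-kB form is as common as not. A match is a description of letters and not a site.

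The level of each member in the 7 libraries is considered first, ordered by the wild-type mean at 90 min. Icam1 was the highest (273 ± 89.7 FPKM, SD, n = 2), followed by Vcam1 (177 ± 6.20 FPKM, SD, n = 2), Pecam1 (35.3 ± 1.67 FPKM, SD, n = 2) and Cdh5 (11 ± 4.44 FPKM, SD, n = 2). Sele came next (8.81 ± 0.651 FPKM, SD, n = 2), within the range of Cdh5. Angpt2 (2.54 ± 0.424 FPKM), Vwf (2.11 ± 0.891 FPKM), Kdr (1.86 ± 0.700 FPKM) and Selp (1.67 ± 0.693 FPKM) came after (SD, n = 2 each), each overlapping the next in this order, though both Angpt2 values lay above both Selp values, and Tek (0.990 ± 0.0141 FPKM, SD, n = 2) was the lowest. At 6 h in wild type, Sele ranked below Selp and above only Tek.

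**Figure D1:**
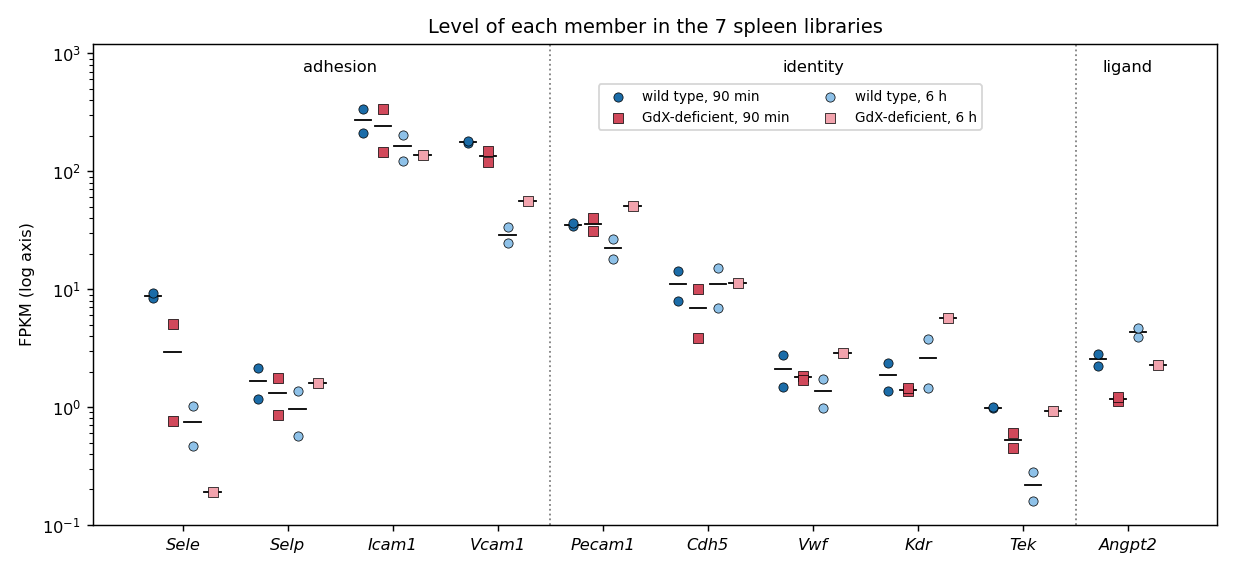
FPKM of the 10 members on a log axis. Each point is 1 library, coloured by group, and the bar is the group mean; wild-type Sele lies at 8.35 and 9.27 FPKM at 90 min and at 0.47 and 1.02 FPKM at 6 h, while Cdh5 has a mean of 11 FPKM at both times.

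The change from 90 min to 6 h was examined in wild type, the comparison with 2 libraries on each side. Vcam1 fell whether or not low genes were filtered out, whereas the adhesion gene Sele and the identity gene Tek were each called on one side of that filter. Differences are of log2(FPKM + 1), a scale on which low genes change less than their FPKM do, and were tested with limma over the 11378 genes with a mean of at least 1 FPKM, with p-values adjusted by the Benjamini-Hochberg method and a threshold of 0.05. Of the 10 members 9 passed that filter and Tek did not. Sele passed it only through its 90 min libraries, so its call among the filtered genes is no independent support. With the filter 2 members were called, Vcam1 and Sele, both lower at 6 h, where 10.7% of all tested genes were called, 6.32% lower and 4.39% higher. In the fit of all 17920 genes, which holds all 10 members, the 2 calls were Vcam1 (limma adjusted p = 0.0266) and Tek (0.0355), and Sele was not called (0.0891), so the calls there did not divide by adhesion and identity.

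Vcam1, which binds the integrin VLA-4, had 173 and 182 FPKM early (90 min) and 24.5 and 33.3 FPKM late (6 h). The times were far apart and the replicates close. The log2 value of Vcam1 fell by 2.59 (SE 0.26, limma adjusted p = 0.00129), and the mean at 90 min was 6.14 times that at 6 h. This gene ranked 25 of 11378 by p-value, and its call held in each of the 18 alternatives run for it, between -2.81 and -2.18.

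Sele, the selectin made by activated endothelium, had 8.35 and 9.27 FPKM early and 0.47 and 1.02 FPKM late, by estimate 487 and 557 fragments against 29 and 63. Both late libraries were below both early ones, by a factor of 11.8 between the means. The log2 difference was -2.51 (SE 0.50), with a limma adjusted p of 0.0160 among the filtered genes and 0.0891 among all genes; a mean of at least 5 FPKM left the gene out.

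Icam1, the ligand of the integrins LFA-1 and Mac-1, had 210 and 336 FPKM early and 123 and 203 FPKM late. Replicates differed by nearly as much as the times, and the 2 nearest values, 203 and 210 FPKM, almost met. The log2 difference was -0.75 (SE 0.43, limma adjusted p = 0.282). It turned on single libraries: without replicate 2 of wild type at 6 h it was -1.10 and past the threshold (limma adjusted p = 0.0478), without replicate 1 it was -0.39 (0.531), and without replicate 2 at 90 min -0.41 (0.709).

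Selp, the selectin of platelets and endothelial storage granules, had 1.18 and 2.16 FPKM early and 0.57 and 1.37 FPKM late, with overlap. The log2 difference was -0.44 (SE 0.32, limma adjusted p = 0.400). Selp and Sele lie 56776 bases apart on chromosome 1, and whether their changes differ was not tested.

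Among the identity members, Pecam1, a junctional adhesion protein, had 34.1 and 36.4 FPKM early and 18.1 and 26.5 FPKM late. The late libraries were both lower, with a log2 difference of -0.66 (SE 0.28, limma adjusted p = 0.159). Removing a trend on transcript length in each library gave -0.70 and a call (limma adjusted p = 0.0396, and 0.0422 with the replicate number as a block), with 2428 and 2650 genes called in place of 1218. Scaling to the second endothelial list gave -0.25 (limma adjusted p = 0.475), and leaving out replicate 1 at 6 h gave -0.40 (0.457). Cdh5, the cadherin of endothelial junctions, had 7.88 and 14.2 FPKM early and 6.95 and 15.02 FPKM late, so the early values lay within the late ones (-0.04, SE 0.49, limma adjusted p = 0.969). The SE leaves room for a change in either direction, and without 1 library at a time the difference ran from -0.55 to 0.47.

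Vwf, which tethers platelets to damaged vessels, had 1.48 and 2.74 FPKM early and 0.98 and 1.73 FPKM late (-0.39, SE 0.30, limma adjusted p = 0.427). Kdr, the main VEGF receptor of endothelium, had 1.37 and 2.36 FPKM and then 1.44 and 3.81 FPKM (0.28, SE 0.36, limma adjusted p = 0.654). Both genes overlapped between the times. Tek, the angiopoietin receptor, had 0.98 and 1.00 FPKM early and 0.16 and 0.28 FPKM late, by estimate 88 and 92 fragments against 15 and 26. Its libraries did not overlap, and in the fit of all 17920 genes it fell by 0.71 (SE 0.09, limma adjusted p = 0.0355). That call was lost with a pseudocount of 0.1 (limma adjusted p = 0.0615), with the replicate number as a block (0.0548) and when any library but the GdX-deficient one at 6 h was left out (0.0700 to 0.204). Angpt2, which modulates Tek signalling, was the one member with both late libraries above both early ones, at 2.24 and 2.84 FPKM and then 3.92 and 4.71 FPKM (0.59, SE 0.26, limma adjusted p = 0.177). Scaled to the second endothelial list, Angpt2 passed the threshold (1.00, limma adjusted p = 0.0231), as 3017 genes did in place of 1218. It lies within the span of Mcph1, which stood between 1.21 and 2.85 FPKM over the 7 libraries, and how fragments were divided between overlapping genes is not stated.

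In all, the wild-type times did not overlap for 6 of the 10 members, against 57.9% of all tested genes, a share near the background. They were lower at 6 h for 5 members (Sele, Icam1, Vcam1, Pecam1 and Tek), against 27.6% of all genes, and higher for Angpt2, against 30.3%.

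Other cell types moved over the same interval, and fewer cells of a type and less RNA per cell cannot be told apart in whole spleen. The summed level of the second endothelial list (28 genes) went from 380 and 414 FPKM to 277 and 278 FPKM in wild type. That of the reticular and perivascular stroma list (12 of 12 above 0 in every library) went from 614 and 450 to 305 and 301 FPKM, and that of the monocyte and macrophage list (9 of 9) from 584 and 674 to 377 and 391 FPKM. The platelet list (10 of 10) stood at 211 and 197 and then at 152 and 111 FPKM. Immediate early and heat shock genes, listed as signs of tissue handling (8 of 8), went from 770 and 933 to 291 and 333 FPKM. Junb made most of these sums (553 and 628, then 199 and 196 FPKM), and Atf3 did not fall (43.3 and 59.1, then 45.8 and 56.5 FPKM). Of the 7 tested, 4 were called lower, against 6.32% of all genes, with a median log2 difference of -1.57. Every animal had received LPS, and handling was not measured apart from it. The part of this list in the member changes was not tested. No defining marker of these lists was at 0 in any library. With each library scaled to the mean log2 level of the second endothelial list, Vcam1 fell by 2.18 (limma adjusted p = 0.00262) and the Sele difference was -2.10 (limma adjusted p = 0.0181, with the same filter). The part of macrophages and stroma in the Vcam1 change was not tested.

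In GdX-deficient spleen the 6 h value rests on 1 library, which limma assumes to vary like the libraries of the other groups. Sele had 5.08 and 0.76 FPKM early and 0.19 FPKM late, by estimate 295, 41 and 11 fragments. The late library was the lowest of all 7, and the early replicates were far apart. The log2 difference was -1.46 (SE 0.61, limma adjusted p = 0.592). Vcam1 stood at 149 and 119 FPKM and then 55.6 FPKM (-1.24, SE 0.32, limma adjusted p = 0.224). It passed when either wild-type library at 6 h was left out (limma adjusted p = 0.0367 and 0.0331), which enter only the estimate of spread; limma then called 231 and 236 genes in place of 0. Icam1 stood at 334 and 146 FPKM and then 136 FPKM, below both.

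The identity members lay above both early libraries at 6 h. Kdr stood at 1.36 and 1.44 FPKM and then 5.68 FPKM (1.48, SE 0.44, limma adjusted p = 0.316, or 0.0305 and 0.0274 without the same 2 libraries in turn), Pecam1 at 31.2 and 40.3 and then 50.4 FPKM, and Cdh5 at 10.1 and 3.84 and then 11.2 FPKM. Vwf stood at 1.85 and 1.71 and then 2.85 FPKM, and Tek at 0.45 and 0.60 and then 0.93 FPKM (0.34, SE 0.11, limma adjusted p = 0.365 in the fit of all genes). Angpt2 stood at 1.12 and 1.21 and then 2.28 FPKM, and Selp, at 1.76, 0.85 and 1.59 FPKM, lay between. The late library lay outside both early ones for 9 of 10 members, 6 above and 3 below, where 72.6% of all tested genes did, 56.8% above and 15.8% below. No member was called in this comparison, nor was any gene (0%), although 910 genes (8%) had an unadjusted p under 0.05 and the fit without a filter on low values called 22.

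**Figure D2:**
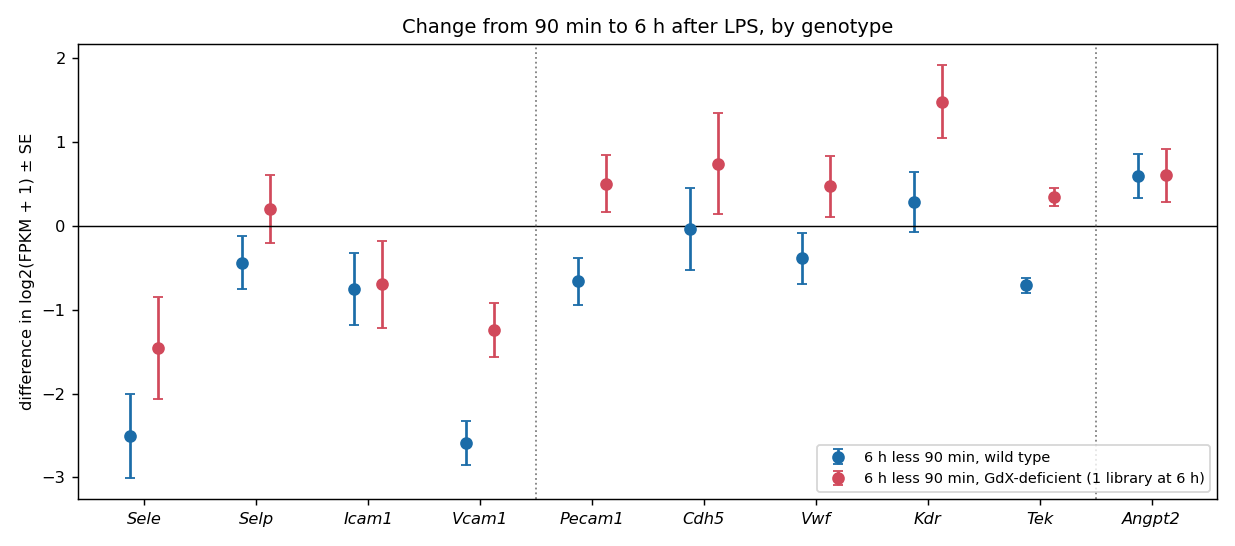
Difference in log2(FPKM + 1) between 6 h and 90 min for each member, with limma's standard error, in wild type and in GdX-deficient spleen (1 library at 6 h); Tek comes from the fit of all genes. Sele and Vcam1 lie farthest below 0 in wild type, at -2.51 and -2.59, and the 5 identity members lie above 0 in GdX-deficient spleen.

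Whether the time change differed between genotypes was tested as an interaction, and no member passed, against 0.0703% of all genes called, 0.0352% in each direction. Vcam1 had the smallest p-value among the 9 tested (difference of differences 1.35, SE 0.41, limma adjusted p = 0.276), followed by Pecam1 (1.16, SE 0.44, limma adjusted p = 0.408), and these were the 2 with an unadjusted p under 0.05, where 9.98% of all genes had one. Tek, in the fit of all genes, had a smaller p-value than either (1.05, SE 0.15, limma adjusted p = 0.111). The median over all genes was 0.19. The second endothelial list stood at 589 FPKM in the GdX-deficient 6 h library, above the other 6 libraries (277 to 414 FPKM), a sum in which genes that blood cells also express weigh most. The mean log2 level of its tested genes, in which each gene weighs alike, was also highest in that library (3.92 against 2.90 to 3.48). Klf2 stood at 152 FPKM in the GdX-deficient 6 h library against 80.6 FPKM in wild-type replicate 2 at 90 min, Lyl1 at 61.9 against 20 FPKM and S1pr1 at 55.0 against 33.6 FPKM. In GdX-deficient replicate 2 at 90 min these genes stood at 126, 57.4 and 44.7 FPKM. Against the same wild-type replicate 2 at 90 min, Cldn5 (23.3 against 52.3 FPKM), Tie1 (4.89 against 7.93 FPKM) and Emcn (0.21 against 0.86 FPKM) were lower in the GdX-deficient 6 h library. Egfl7 (28.55 against 8.22 FPKM), Ramp2 (20.25 against 7.82 FPKM), Sox18 (7.68 against 0.80 FPKM), Mmrn2 (4.66 against 1.61 FPKM) and Ecscr (12.05 against 7.03 FPKM) were higher there. Of the 23 tested genes of the list, 23 had an interaction above 0, and 20 were higher than in wild type at 6 h. Monocyte and macrophage markers also had their highest sum in the GdX-deficient 6 h library (769 FPKM). Ly6c2 stood at 206 FPKM there and at 68.8 to 89.1 FPKM elsewhere. Hmox1 (210 against 266 FPKM), Csf1r (46.5 against 72.0 FPKM) and Cd163 (0.26 against 3.16 FPKM) were lower than in wild-type replicate 2 at 90 min. Adgre1 (42.3 against 27.1), Cd68 (55.3 against 45.6), Spic (185 against 164), Slc40a1 (18.3 against 14.8) and Ccr2 (5.44 against 2.83 FPKM) were higher. Scaled to the second endothelial list, the Vcam1 change with time was -2.18 in wild type and -2.13 in GdX-deficient spleen (limma adjusted p = 0.0331 for the latter), and the Pecam1 interaction turned to -0.14 (limma adjusted p = 0.777). Angpt2, whose interaction was 0.01 unscaled (limma adjusted p = 0.996), was then called at -1.28 (0.0418), as were 3332 genes in all. That scaling moved the median of all genes to 0.46 for time in wild type, -0.64 for time in GdX-deficient spleen and -1.10 for the interaction.

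When both genotypes were pooled with genotype as a covariate, 3 late libraries met 4 early ones, of which the wild-type libraries are those described above. Vcam1 fell by 2.05 (SE 0.29, limma adjusted p = 0.00695), and Sele, again among the filtered genes, had a difference of -2.09 (SE 0.40, limma adjusted p = 0.0214). These were the 2 calls among the 9 members tested, where 5.44% of genes were called, 2.65% lower. Sele lost its call without replicate 2 of wild type at 6 h (limma adjusted p = 0.0559) and without the filter on low values (0.0928). Kdr (0.76, SE 0.33, limma adjusted p = 0.170), Icam1 (-0.73, SE 0.32, 0.173) and Angpt2 (0.59, SE 0.22, 0.115) also had an unadjusted p under 0.05, as 26.6% of all genes had, and did not pass. Within both genotypes the times did not overlap and kept 1 direction for 4 of 10 members, against 33.6% of all genes: Sele, Icam1 and Vcam1 were lower at 6 h (9.6% of all genes) and Angpt2 was higher (24%).

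The adhesion and identity sets were then contrasted library by library, as the mean log2(FPKM + 1) of the 4 adhesion members less that of the 5 identity members. The difference was 2.51 and 2.47 in wild type at 90 min and 1.26 and 1.19 at 6 h. It was 2.57 and 1.74 in GdX-deficient spleen at 90 min and 0.65 at 6 h. All 4 libraries at 90 min thus lay above all 3 at 6 h. In wild type the adhesion mean went from 4.88 and 5.23 to 3.21 and 3.76, and the identity mean from 2.36 and 2.76 to 1.95 and 2.57. In the GdX-deficient 6 h library the adhesion mean was 3.64, within the wild-type range at that time, while the identity mean was 2.99, the highest of the 7. This score was built from genes chosen with earlier results known, and no test was made of it.

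**Figure D3:**
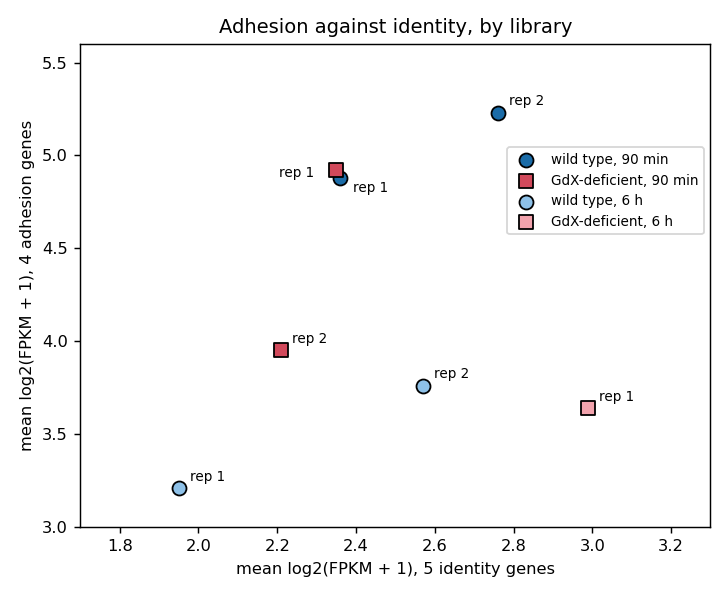
Mean log2(FPKM + 1) of the 4 adhesion members against that of the 5 identity members; each point is 1 library with its replicate number. The 90 min libraries lie between 3.95 and 5.23 on the adhesion axis and the 6 h libraries between 3.21 and 3.76, while the identity means of the times overlap.

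Genotype was compared at 90 min, in the libraries that also served the time comparisons. Of the 9 members tested none passed the threshold, and over all genes 0.0176% did. Sele and Angpt2 had an unadjusted p under 0.05, as 7.58% of all genes had. Sele had 5.08 and 0.76 FPKM without GdX and 8.35 and 9.27 FPKM in wild type. Both GdX-deficient libraries were lower, 1 of them close to the 6 h levels. The log2 difference was -1.58 (SE 0.50, limma adjusted p = 0.573). It rested on GdX-deficient replicate 2, without which it was -0.69 (limma adjusted p = 0.999), and without replicate 1 it was -2.48 (0.0835). In a fit of just these 4 libraries Sele passed (limma adjusted p = 0.0390), as it did when either wild-type library at 6 h was left out (0.0343 and 0.0316). Over all genes limma called 181, 173 and 183 in these 3 fits, in place of 2.

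In GdX-deficient replicate 2 several lists stood apart from replicate 1. Its neutrophil markers summed to 4650 against 973 FPKM, and wild type had 1060 and 669 FPKM. Its stromal list summed to 141 against 292 FPKM, both below wild type (614 and 450 FPKM). Most of that gap between replicates lay in Ccl21a (36.6 against 117 FPKM), Ccl19 (27.0 against 63.5 FPKM) and Cxcl13 (49.7 against 77.4 FPKM). Des (8.17 against 9.33 FPKM) and Col3a1 (2.99 FPKM in both) were close, and below wild type (25.25 and 20.7 FPKM, and 9.16 and 8.30 FPKM). The tissue handling list of replicate 2 summed to 337 against 734 FPKM, below wild type (770 and 933 FPKM). Within that list the heat shock genes went the other way, with Hspa1b at 12.2 against 3.41 FPKM (wild type 11.6 and 7.24 FPKM) and Hspa1a at 5.45 against 1.45 FPKM (wild type 3.96 and 2.76 FPKM). The part of these differences in the Sele value was not tested. Icam1 (334 and 146 FPKM) and Cdh5 (10.1 and 3.84 FPKM) were lower in the same replicate, while Pecam1 (31.2 and 40.3 FPKM) was not.

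Vcam1 had 149 and 119 FPKM without GdX and 173 and 182 FPKM with it, and Tek at 0.45 and 0.60 against 0.98 and 1.00 FPKM (-0.39, SE 0.09, limma adjusted p = 0.552 in the fit of all genes). Angpt2 stood at 1.12 and 1.21 FPKM against 2.24 and 2.84 FPKM, a log2 difference of -0.70 (SE 0.26, limma adjusted p = 0.621). With Sele these are the 4 of 10 members whose genotypes did not overlap, all lower in GdX-deficient spleen, where 47.5% of all genes did not overlap, 23.4% lower. The other 6 overlapped, among them Icam1, at 334 and 146 against 210 and 336 FPKM, and Kdr, at 1.36 and 1.44 against 1.37 and 2.36 FPKM.

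At 6 h the single GdX-deficient library had 50.4 FPKM of Pecam1 against 18.1 and 26.5 FPKM in wild type (1.17, SE 0.34, limma adjusted p = 0.0774). It had 55.6 FPKM of Vcam1 against 24.5 and 33.3 FPKM (0.94, SE 0.32, limma adjusted p = 0.104). Neither passed the threshold; without replicate 2 of wild type at 6 h both did (limma adjusted p = 0.00966 and 0.0229), as did Kdr (1.45, 0.0144). With the replicate number as a block Pecam1 (0.0159) and Kdr (1.22, 0.0322) passed. Over all genes these settings called 3035 and 3383 genes, in place of 450. Tek stood at 0.93 FPKM against 0.16 and 0.28 FPKM (0.66, SE 0.11, limma adjusted p = 0.0738 in the fit of all genes), Vwf at 2.85 against 0.98 and 1.73 FPKM, Kdr at 5.68 against 1.44 and 3.81 FPKM, and Selp at 1.59 against 0.57 and 1.37 FPKM. These 6 lay above both wild-type libraries. Sele, at 0.19 against 0.47 and 1.02 FPKM, and Angpt2, at 2.28 against 3.92 and 4.71 FPKM, lay below both, and Icam1 and Cdh5 lay between.

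The GdX-deficient library was outside the wild-type pair for 8 of 10 members, against 80.3% of all tested genes, 54.9% above and 25.3% below. No member was called, where limma called 3.96% of all genes, 2.91% higher and 1.05% lower. Many lists stood higher in the same library: the median log2 difference of all genes was 0.32, that of the second endothelial list 0.88 and that of the monocyte and macrophage list 1.34. Scaled to the second endothelial list, the Pecam1 difference was 0.25 and the Vcam1 difference 0.02, and quantile normalization, which brought the median of all genes to -0.02, left them at 1.15 and 0.97. Under the scaling Angpt2 was called lower (-1.61), as it was with the length correction (-1.06, or -1.19 with the block). Each of these settings also called more genes in all than the main fit.

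**Figure D4:**
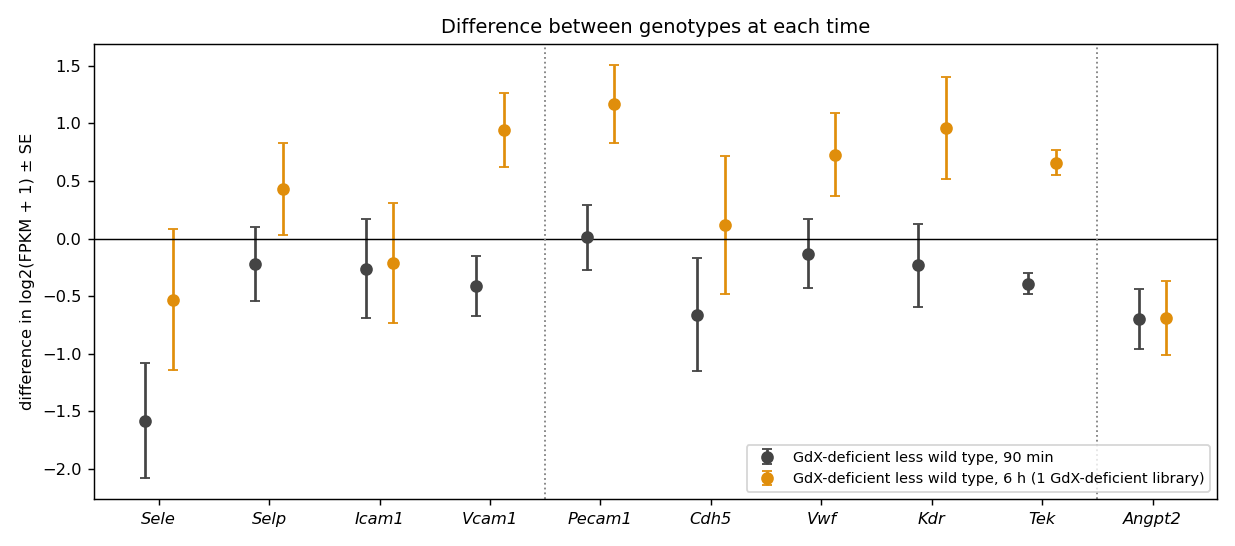
Difference in log2(FPKM + 1) between GdX-deficient and wild-type spleen for each member at 90 min and at 6 h (1 GdX-deficient library), with limma's standard error; Tek comes from the fit of all genes. Sele is lowest at 90 min, at -1.58, and Angpt2 lies near -0.70 at both times.

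When both times were pooled with time as a covariate, none of the 9 members passed between genotypes, against 0.0439% of all genes, 0.0352% higher and 0.00879% lower. Angpt2 and Sele had an unadjusted p under 0.05, as 27% of all genes had. Angpt2 had the smallest p-value (log2 difference -0.70, SE 0.22, limma adjusted p = 0.109), with all 3 GdX-deficient libraries below wild type within their time. Sele followed (-1.16, SE 0.40, limma adjusted p = 0.120), also lower in 3 of 3 libraries within each time. Leaving out the second GdX-deficient replicate at 90 min brought it to -0.61 (limma adjusted p = 0.354). It passed once the first was left out (-1.51, limma adjusted p = 0.0439) and with scaling to the second endothelial list (-1.31, 0.0133), settings under which limma called 1674 and 256 genes in place of 5. These 2 were the members whose genotypes did not overlap at either time in 1 direction, both lower: 2 of 10, against 32.1% of all genes, 13% lower and 19% higher.

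The second endothelial list was followed through the same comparisons, with 23 of its 28 genes tested. For time in GdX-deficient spleen, with 1 library at 6 h, 20 of the 23 lay above 0 (median log2 difference 0.92, against 0.25 over all genes). For the interaction 23 of 23 did (median 1.25, against 0.19). In wild type from 90 min to 6 h, 5 fell and 1 rose (median of the tested genes -0.24, against 0.05 over all genes), where 6.32% of all genes fell and 4.39% rose. Stab2, a scavenger receptor of sinusoidal endothelium, fell from 4.57 and 6.66 to 0.78 and 1.48 FPKM (-1.64, limma adjusted p = 0.0130). Cldn5, a tight junction protein, fell from 56.2 and 52.3 to 14.4 and 10.7 FPKM (-2.04, limma adjusted p = 0.0206). The transcription factors Klf4 (-1.35, limma adjusted p = 0.0155) and Tal1 (-1.64, 0.0200) also fell. Tal1 is shared with red cell precursors, whose list sum was 550 and 623 FPKM early and 199 and 271 FPKM late. Tie1, the partner receptor of Tek, fell from 5.98 and 7.93 to 1.90 and 3.01 FPKM (-1.21, limma adjusted p = 0.0418). Egfl7, a secreted endothelial protein, rose from 10.7 and 8.22 to 28.2 and 19.4 FPKM (1.23, limma adjusted p = 0.0375).

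With genotype as a covariate Egfl7 (1.62, limma adjusted p = 0.0137) and Ecscr (1.24, 0.0233), which encodes an endothelial surface protein, rose and Tal1 fell (-1.24, 0.0424), where 2.79% of all genes rose and 2.65% fell. At 90 min and with time as a covariate, 0 of the 23 genes passed between genotypes, with 9 and 6 at an unadjusted limma p under 0.05, as 7.58% and 27% of all genes had; the latter count is near its background. At 6 h, 3 were called higher, where 2.91% of all genes were, in the single GdX-deficient library: Sox18, an endothelial transcription factor, at 7.68 against 1.10 and 1.54 FPKM (1.91, limma adjusted p = 0.0260, though it passed the filter only through that library), Mmrn2 at 4.66 against 0.89 and 1.22 FPKM (1.47, 0.0382), and Tal1 at 11.2 against 1.44 and 2.59 FPKM (2.05, 0.0382).

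Among 13 VEGF and angiopoietin ligands and receptors, 9 were tested and 2 fell with time in wild type (6.32% of all genes fell), Tie1 (above) and the VEGF co-receptor Nrp1, from 2.92 and 2.79 to 0.99 and 1.10 FPKM (-0.91, limma adjusted p = 0.0484). Of the 12 leukocyte ligands of the adhesion molecules, all tested, 3 fell, against the same 6.32%. Itgb7, a subunit of the integrin that binds MAdCAM-1 and VCAM-1, fell from 49.6 and 53.1 to 5.92 and 6.63 FPKM (-2.85, limma adjusted p = 0.00129). Itgax, the CD11c chain, fell by 1.51 (limma adjusted p = 0.0166) and Cd44, a ligand of E-selectin in some glycoforms, fell by 1.05 (0.0361). B cell markers summed to 1570 and 1470 FPKM at 90 min and 474 and 485 FPKM later, and their part in the Itgb7 change was not tested. At 6 h Itgb7 was higher in the single GdX-deficient library, at 58.4 FPKM (3.03, limma adjusted p = 0.00664), as was Itgax (1.84, 0.0364).

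Of 7 enzymes that build selectin ligands, 4 were tested and 0 passed in wild type or between genotypes with time as a covariate, with 1 at an unadjusted limma p under 0.05 in each, as 28.7% and 27% of all genes had. Fut4, a fucosyltransferase, was at 0.35 to 0.78 FPKM in the 4 early libraries and at 1.05, 2.27 and 4.35 FPKM in the late ones. It was called for time with genotype as a covariate (1.21, limma adjusted p = 0.0358), but it passed the filter only through the late libraries, so the call is no independent support. Of 14 genes that carry cytokine and LPS input, 3 fell in wild type, where 10.7% of all genes were called and 6.32% fell. These were Lta, a cytokine of the tumour necrosis factor family (-2.06, limma adjusted p = 0.00779), Il1b (-1.84, 0.0175) and the LPS co-receptor Cd14 (-1.06, 0.0393). Lta went from 36.7 and 40.05 to 7.89 and 8.98 FPKM. With genotype as a covariate 2 of these fell, Lta and Cd14, where 5.44% of all genes were called and 2.65% fell, and at 6 h the LPS receptor Tlr4 was higher in the single GdX-deficient library, at 5.17 against 0.76 and 1.26 FPKM (1.63, limma adjusted p = 0.0481).

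Of 10 genes for storage granule release and von Willebrand factor cleavage, 9 were tested and 0 passed in wild type, with 2 at an unadjusted limma p under 0.05, near the 28.7% of all genes that had one. Adamts13, the protease that cleaves von Willebrand factor, had 18.6 and 9.51 FPKM early and 4.95 and 5.26 FPKM late (-1.24, limma adjusted p = 0.0525). Rab27a, a GTPase of granule release, had a difference of -0.80 (limma adjusted p = 0.0900). Of 13 sheddases and junction partners, 12 were tested and 1 fell, a share near the 6.32% of all genes. This was Jup (plakoglobin), which binds VE-cadherin at junctions, from 6.21 and 10.7 to 2.02 and 3.02 FPKM (-1.40, limma adjusted p = 0.0324).

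The genes whose pattern was most like that of Sele over the 7 libraries, by Pearson's r of log2(FPKM + 1), were Il12b (the p40 subunit of interleukin-12; 0.993), Cd83 (an activation marker of dendritic and B cells; 0.993), Has2 (a hyaluronan synthase; 0.990), Srgn (serglycin; 0.989) and Maff (a small Maf factor; 0.989). Like Sele, Il12b was at 62.1 and 52.8 FPKM in wild type and at 38.9 and 3.76 FPKM without GdX early, and at 1.31 to 3.83 FPKM in the 3 libraries at 6 h. Those most like Cdh5 were Sh3bp4 (0.965), Creb3l1 (0.958), Enc1 (0.949), Plk3 (0.948) and Nrp2 (a co-receptor for VEGF and semaphorins; 0.947). These 7 points share 4 groups and the length trend between wild-type replicates, so the values are descriptions. Among the members, Sele ran closest with Icam1 (r = 0.848) and Vcam1 (0.797), followed by Selp (0.549) and the identity member Tek (0.486), and had 0.270 with Cdh5 and 0.0767 with Pecam1, and Pecam1 ran closest with Tek (0.820) and Vwf (0.811).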

How the data were processed

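RNA of 7 mouse spleens was sequenced on a BGISEQ-500 instrument after oligo-dT selection or rRNA depletion (the protocol names both), per the labels' protocols. The authors deposited a table of FPKM, rounded to 2 decimals; its header names every library. The submitters' processing notes name HISAT, HISAT2 2.0.4, Bowtie2, RSEM and GRCm38.p5, without their roles; filters and strand are not given in the sources used here. Replicates are separate mice per the series' design text.

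The 4 groups come from the sample titles. Values were converted to log2(FPKM + 1), and genes with a mean of at least 1 FPKM were fitted with limma 3.58.1 in R 4.3.3 (empirical Bayes with a trend). Contrasts at 90 min, at 6 h, within each genotype and the interaction came from 1 fit of the 4 groups, and the covariate comparisons from additive fits. Tests are two-sided with Benjamini-Hochberg adjustment. The 10 members, the lists and the tests were chosen with earlier results of these data known. All members are named. Log2 differences are given for every tested member for time in wild type and elsewhere for members with an unadjusted p under 0.05; those of Tek come from a fit of all genes. From each list up to 4 genes past the threshold with the smallest p were named, or up to 2 where none passed; further list genes were named after their values were seen. Transcript lengths for 17075 genes came from GENCODE M21 by RefSeq accession, and depth was estimated from the steps of low values. Alternatives changed the pseudocount, filter, scaling, length trend, block, empirical Bayes trend and libraries. Scripts were tested on simulated data.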

Additional observations from a re-analysis of the deposited data

How the results depend on the processing

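Of 467 values for 30 member differences under the alternatives, 433 kept their direction and side of the threshold, 28 crossed it and 6 turned direction. The count of members called went to 1 in the fit of only the compared libraries for genotype at 90 min, with a mean of at least 5 FPKM for time in wild type (Sele is then not tested), and without a filter or with that mean for time with genotype as a covariate. Scaling to the second endothelial list gave 1 call each for genotype with time as a covariate, genotype at 6 h, time in GdX-deficient spleen and the interaction, where 256, 3086, 340 and 3332 of 11378 genes were called. Leaving out 1 library gave 0 to 1 calls for genotype at 90 min and with time as a covariate, 1 to 2 for time with genotype as a covariate, 0 to 3 for genotype at 6 h and 0 to 2 for time in GdX-deficient spleen. In wild type, scaling turned the time difference of Cdh5 to 0.37 and of Vwf to 0.02, and leaving out a library took Cdh5 from -0.55 to 0.47 and Kdr from -0.21 to 0.77. Scaling turned the Pecam1 interaction to -0.14. The adhesion less identity score became 0.31 (GdX-deficient, 6 h) and 2.92 (GdX-deficient replicate 1, 90 min) with a pseudocount of 0.1. With medians the 90 min libraries became 3.41 and 2.46 (GdX-deficient) and then 4.02 and 3.53 (wild type). Where no construction shows it, the cause was not tested.

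Replicate numbers are shared between groups, but no label says that they pair mice: same-numbered deviations correlated at 0.77 between the wild-type groups, 0.08 and -0.12 with the GdX-deficient one. With the number as a block, 2 members were called at 6 h between genotypes, and 1 with a length correction, with or without the block (2018 and 1146 of 11180 genes were then called). Over all genes the block took the calls from 1218 to 2345 for time in wild type and from 450 to 3383 for genotype at 6 h. Quantile normalization moved the median of all genes from 0.32 to -0.02 for genotype at 6 h, from 0.16 to -0.01 for genotype with time as a covariate and from 0.25 to 0.02 for time in GdX-deficient spleen. Depth limits Sele and Tek at 6 h, with an estimated 11 fragments for Sele in the GdX-deficient library and 29 and 63 in wild type, and 82 and then 15 and 26 for Tek.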
